A study of Mus musculus with 2 samples.

Results

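Arterial endothelial cells (AECs) of the fetal mouse bone marrow were described here across all genes. They are the 56 cells that the study's cell list places in the arterial cluster of endothelial cells (ECs) at E18.5, shortly before birth. They were taken by barcode from the wild-type library, out of 435 listed ECs of that stage (12.9%, 95% Clopper-Pearson interval 9.87% to 16.4%) and 12823 barcodes in the whole series. The list available was a first part of the authors' EC list, so the share refers to the listed cells only. The 379 other listed ECs comprised 232 capillary-1, 47 capillary-2, 53 capillary-3 and 47 sinusoidal cells. The authors defined the clusters from the expression of these same genes, so differences between AECs and the other ECs describe the clusters and were not tested.

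The series holds 2 libraries of bone marrow cells from E18.5 C57BL/6 embryos, 1 per genotype, after magnetic removal of lineage-committed haematopoietic cells. The first library is labelled wild-type, and tamoxifen was not stated for it. The other is labelled Bmx-CreER Wls. In the paper's mutants with these alleles, tamoxifen-activated Cre under the arterial Bmx promoter recombines floxed Wls. This gene encodes the carrier that Wnt proteins need to leave a cell. The number of embryos pooled was not stated. Single cells were captured with BD Rhapsody, which tags each polyadenylated transcript with a unique molecular identifier (UMI). The libraries held 22708005 and 24704991 UMIs, and 49 barcodes occurred in both.

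Arteries carry blood into the marrow and branch into capillaries, which drain into the wide, thin-walled sinusoids. Arterial identity in the embryo is set by VEGF and Notch signals and by SOX17, and is marked by ephrin-B2, by the connexins 37 and 40 and by an elastic wall. In the marrow, arterial vessels are known as a source of factors for haematopoietic and stromal cells, CXCL12 among them.

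AECs were as deep as the other listed ECs. They held 182170 UMIs, with 740 to 8323 UMIs per cell and a median of 2856, against a median of 2841 in the other ECs. The median mitochondrial share was 6.93% in AECs and 6.43% in the other ECs. All 56 cells passed the study's cell filter. Levels below were summed over the cells of a group and scaled to 1000000 UMIs in all (CPM). Ranges in parentheses are 95% exact intervals and, with 1 library per genotype, cover counting error only, not the spread between embryos.

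The 5 arterial marker genes are given as a description, not as a check of the label, because the clusters were made from the same expression data. At least 3 of the 5 had a UMI in 45 of the 56 AECs, against 4 of the 379 other ECs, and 1 AEC had none. Gja4, which encodes connexin 37, was counted in 48 AECs, with a median of 2 and a maximum of 14 UMIs per cell. Its level was 1092 CPM in AECs, 23.0 in capillary-1, 43.6 in capillary-2 and 4.81 in capillary-3 ECs, with no UMI in sinusoidal ECs. Outside the endothelium, Gja4 stood at 96.0 CPM in the 45 listed mural cells. Gja4 was counted in 4.49% of the other ECs and in 0.183% of haematopoietic stem and progenitor cells (HSPCs), which lie deeper at a median of 6273 UMIs. With every cell thinned to 1000 UMIs, the Gja4 shares were 61.5% of 52 AECs and 1.35% of 370 other ECs. Cxcl12 stood at 1460.2 CPM in AECs and 10.7 CPM in the other ECs, Sox17 at 675 and 77.5 CPM, Efnb2 at 615 and 96.5 CPM, and Bmx, the gene whose promoter drives the Cre, at 110 and 2.47 CPM.

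The cells were endothelial by general markers as well. None of the 10 pan-endothelial genes was 2-fold lower in AECs. Cdh5, which encodes VE-cadherin, and Pecam1 had a UMI in all 56 AECs. Genes of other cell types were low. Of 10 mural genes 6 were at 0 in AECs, Pdgfrb, Acta2 and Myh11 among them, and the sum of the list was 115 CPM (71.4 to 176), with 148 CPM outside AECs. The chondrocyte list summed to 247 CPM in AECs and 294 CPM in the other ECs. The stromal and osteolineage list summed to 192 and 265 CPM, with Pdgfra, Prrx1 and Sp7 at 0 in AECs. The erythroid list summed to 27.4 and 241 CPM. The haematopoietic list was the one of these that was higher in AECs, at 329 CPM (251 to 424) against 153 CPM (131 to 176). Ptprc, Lyz2 and Tyrobp were at 0 in AECs, while Srgn with 31 UMIs and Laptm5 with 19 made up most of the sum. None of the 7 Schwann and neural genes had a UMI in AECs.

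Of 4915 genes with at least 50 UMIs over all listed ECs, 233 (4.74%) were at least 2-fold higher in AECs and 683 (13.9%) at least 2-fold lower. The median gene had a ratio of 0.888, a log2 shift of -0.17. Taken relative to that median, 337 genes were higher and 546 lower, so that the higher genes made up 38.2% of those past 2-fold in place of 25.4%. Among the tested genes 27 had no UMI in AECs. A count of 0 was set to 3 counts, which makes such a ratio a bound. In the gene lists below, members that are also among the 5 markers were kept in the counts, such as Cxcl12 among the niche factors. They were picked as markers of AECs, so their part in a list's count was given in advance.

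**Figure D1:**
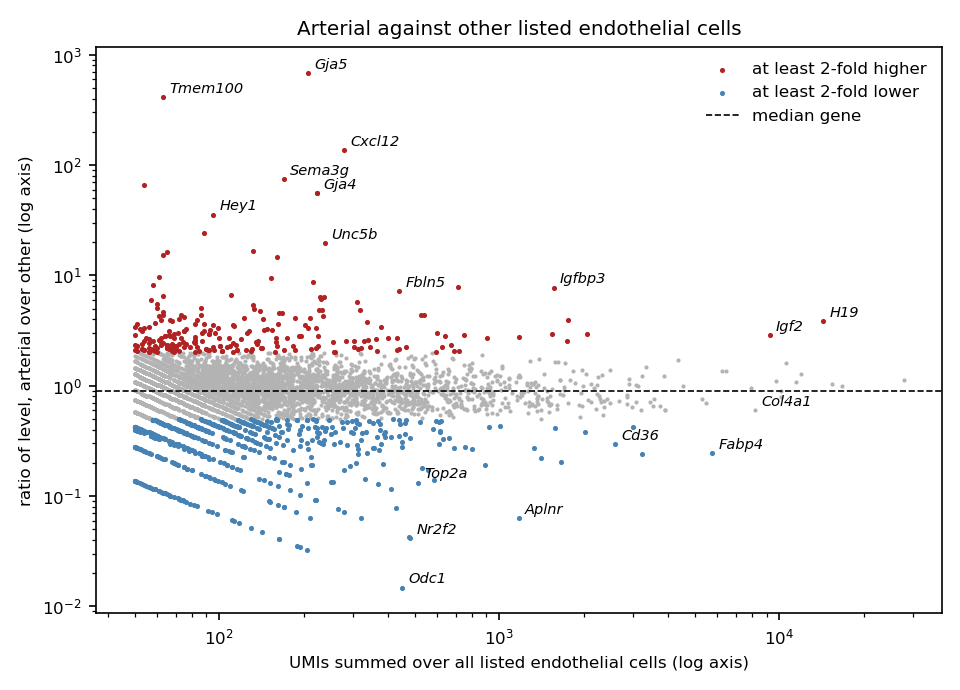
Each point is 1 of the 4915 genes, with UMIs summed over the 435 listed ECs on the x axis and the ratio of levels, AECs over other listed ECs, on the y axis, both logarithmic. Red and blue mark the 233 genes at least 2-fold higher and the 683 at least 2-fold lower, the broken line is the median gene at 0.888, and the diagonal rows at low counts are genes with few or no UMIs in AECs.

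The promoters of Gja5, Gja4 and Cxcl12 are shown because these are among the genes that set AECs apart most, and because both connexins mark arterial identity. Tmem100, Stmn2, Hey1 and Mgp had no window. The windows are 300 bases long, span the RefSeq start of the gene (GRCm38.p6) and run 5′ to 3′ on the gene's strand. Capitals mark the searched letters on either strand: TGGGAA (or TTCCCA), the core of RBPJ sites, ACAAT (or ATTGT), the core of SOX sites, and GGAAG (or CTTCC), a core of ETS sites.
Gja5, chr3:97032152-97032451, plus strand: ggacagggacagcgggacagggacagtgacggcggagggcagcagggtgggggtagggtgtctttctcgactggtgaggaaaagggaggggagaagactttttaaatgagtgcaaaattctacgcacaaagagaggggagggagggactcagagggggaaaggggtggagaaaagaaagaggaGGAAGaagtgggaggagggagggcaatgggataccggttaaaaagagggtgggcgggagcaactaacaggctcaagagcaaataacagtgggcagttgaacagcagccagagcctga
Gja4, chr4:127313990-127314289, minus strand: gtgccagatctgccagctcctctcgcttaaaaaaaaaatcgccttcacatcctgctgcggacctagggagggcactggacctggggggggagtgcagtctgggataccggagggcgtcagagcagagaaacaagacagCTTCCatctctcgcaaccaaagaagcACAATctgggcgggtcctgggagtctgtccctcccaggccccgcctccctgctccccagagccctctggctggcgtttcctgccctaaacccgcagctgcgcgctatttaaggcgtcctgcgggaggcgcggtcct
Cxcl12, chr6:117168285-117168584, plus strand: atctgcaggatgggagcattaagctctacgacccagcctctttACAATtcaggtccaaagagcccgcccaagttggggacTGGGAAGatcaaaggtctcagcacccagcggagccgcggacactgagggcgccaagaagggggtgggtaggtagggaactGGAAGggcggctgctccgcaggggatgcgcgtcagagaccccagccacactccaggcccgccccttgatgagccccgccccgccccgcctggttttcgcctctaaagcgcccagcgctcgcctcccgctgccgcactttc
Of the 15 genes with the highest lower bound of the ratio, 11 had a window. The ETS letters were in the windows of 7 of these 11 genes, the SOX letters in 4 and the RBPJ letters in 2, while 71.4%, 31.0% and 25.6% of all 32851 windows held them. A match is a description of the letters, and no match says only that these letters are not in that window.

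Gja5, for connexin 40, which forms gap junctions with connexin 37 in arteries, came first. It had 206 UMIs in AECs (1131 CPM, 982 to 1296) and 2 in all 379 others, which gave a ratio of 686 (187 to 5701). It was more uneven between AECs than Gja4: Gja5 was counted in 31 of the 56 cells, with a median of 1 and a maximum of 32 UMIs. Both connexins were counted in 28 AECs, Gja4 alone in 20, Gja5 alone in 3 and neither in 5. Of the junction genes 3 of 11 tested members were at least 2-fold higher, against 4.74% of all tested genes. Another 2 were lower, not far from the 13.9% of all tested genes. Cldn5, which seals tight junctions, was 2.78-fold higher (2.45 to 3.16), whereas Gja1, for connexin 43, had a ratio of 0.492 (0.282 to 0.805), which 5 alternatives moved above 0.5.

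The other genes at the top encode secreted, guidance and signalling proteins. Tmem100, a membrane protein of arterial endothelium downstream of BMP9 and ALK1, had 62 UMIs in 21 AECs and 1 UMI in all other ECs. Sema3g, a secreted semaphorin, stood at 856 CPM (727 to 1002) against 11.5 CPM. Stmn2, a microtubule-binding stathmin better known from neurons, stood at 1098 CPM in AECs and at 87.3 CPM in capillary-2 ECs, with no UMI in sinusoidal ECs. Dkk2, a secreted Wnt antagonist or modulator, was counted 49 times in 22 AECs and 5 times elsewhere in the listed ECs, with a ratio of 65.3 (26.1 to 210). Unc5b, a netrin receptor of arterial and tip cells, was 19.8-fold higher, and Sema7a, a membrane-anchored semaphorin, 16.1-fold. Vegfc, the growth factor of lymphatic vessels, was 15.4-fold higher. Igfbp3, which binds insulin-like growth factors, was the most abundant of the 15, at 4617 CPM against 596 CPM.

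Not all of these genes were endothelial in this marrow. Gja5, Stmn2 and Sema3g stayed under 10 CPM over all listed HSPCs, stromal cells (BMSCs), chondrocytes and mural cells. By class, Sema3g reached 15.4 CPM in mitotic BMSCs. In the BMSC class eBMSC-2, Tmem100 stood at 246, Dkk2 at 173 and Ltbp4 at 408 CPM, against 340, 269 and 516 CPM in AECs. Unc5b stood at 335 CPM in the BMSC class OLCs-1, against 977 CPM in AECs. Mgp, an inhibitor of calcification and of BMP signalling, stood at 379 CPM in AECs but at 2661 CPM in chondrocytes, and its AEC counts came from 17 cells, 1 of which held 29.0% of them. Its ratio fell from 24.2 to 4.71 under the marker rule, and that of Tmem100 from 413 to 33.9. Cxcl12 stood at 648 CPM over all BMSCs and at 3638 CPM in 1 of their classes, the osteolineage cells OLCs-1, above its level in AECs. The 5 genes whose pattern over 18 listed classes was most like that of Gja4, by Pearson correlation of log2(CPM + 10), were Bcam (0.886), Gja5 (0.873), Stmn2 (0.868), Ankrd37 (0.822) and Rabgap1 (0.819). The classes share 1 library and differ in depth.

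**Figure D2:**
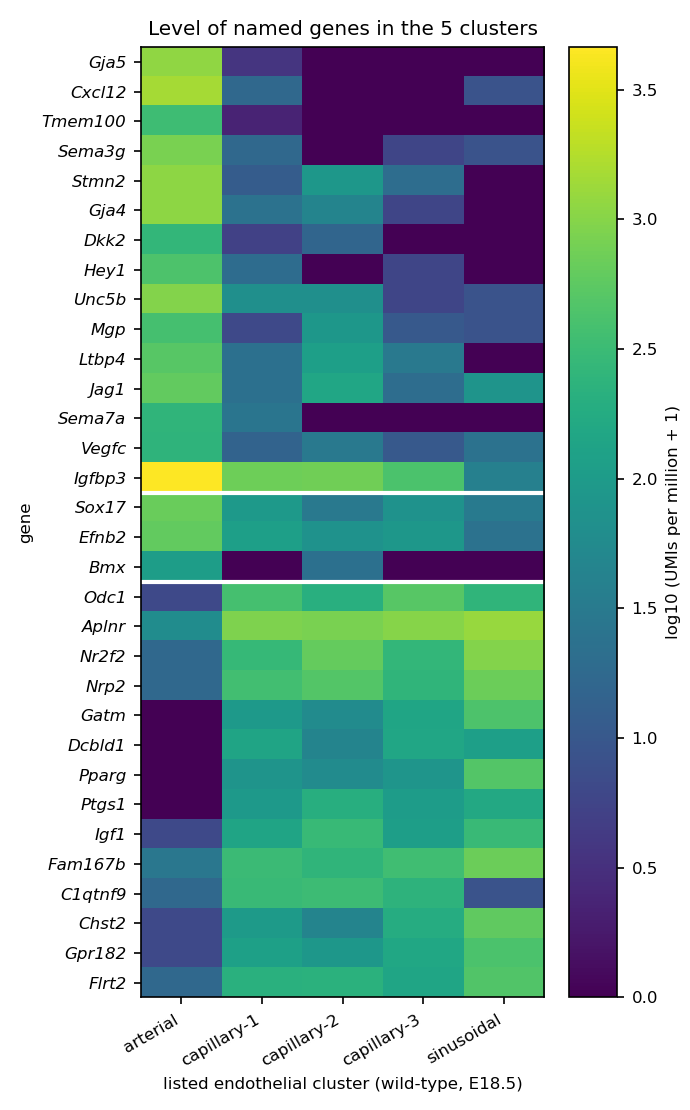
Colour gives the level, as log10 of CPM plus 1, of the 15 genes with the highest ratio bound (top), the remaining 3 markers (middle) and 14 of the 15 with the lowest bound (bottom) in the 5 listed EC clusters. The upper genes are bright in AECs. Igfbp3 is also bright in the capillary clusters, at 428 to 749 CPM, and Stmn2, Mgp, Ltbp4 and Jag1 are among those visible in capillary-2 ECs. The lower genes are dark in AECs, 4 of those shown with no UMI.

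At the other end, the genes nearly absent from AECs included markers of veins and sinusoids. Odc1, which encodes ornithine decarboxylase, the first enzyme of polyamine synthesis, had a single UMI in AECs but 450 elsewhere in the listed ECs, where 49.6% of cells had one. Its level was 67.6-fold lower (12.1 to 2675). Where AECs were taken by marker counts in place of the list (the marker rule, described with the second library), Odc1 had a ratio of 0.205, or 4.88-fold lower. Nr2f2, which encodes the venous transcription factor COUP-TFII, was counted 3 times in AECs and 478 times elsewhere. Nrp2, a VEGFC and semaphorin receptor of veins and lymphatics, had 3 and 473. Aplnr, the apelin receptor, had 11 UMIs in 3 AECs and was counted in 82.6% of the other ECs, 15.9-fold lower (8.83 to 31.9). Gatm, Dcbld1, Pparg and Ptgs1 had no UMI in AECs, and were 8.11-, 7.61-, 7.21- and 6.96-fold lower with 3 counts set in place of 0. Pparg, a transcription factor of fat-handling endothelium, stood highest in sinusoidal ECs, at 482 CPM. Igf1, Chst2 and Gpr182 had 1 UMI each in AECs, against 205, 193 and 188 in the other ECs. Flrt2, C1qtnf9 and Fam167b had 3, 3 and 5 UMIs, against 276, 318 and 424.

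Of 12 tested sinusoidal and venous markers 11 were at least 2-fold lower, against 13.9% of all tested genes. The exception was Ephb4, the receptor for ephrin-B2 and a classic venous marker, with a ratio of 0.732 (0.559 to 0.946) and a UMI in 35 of 56 AECs. Of 9 tested capillary and tip cell markers 6 were lower. Plvap, which forms the diaphragms of fenestrae and caveolae, stood at 269 CPM against 1326 CPM. Apln, the apelin ligand of tip cells, had a ratio of 0.558, just short of 2-fold.

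Of 21 tested transcription factor genes 6 were at least 2-fold higher, against 4.74% of all tested genes, and 5 were lower, against 13.9%. Hey1, a Notch target that represses venous genes, was 35.5-fold higher (20.3 to 66.4), with a UMI in 35 AECs. Hey2 had 7 UMIs in AECs and none elsewhere, at least 15.5-fold higher. Mecom was 9.51-fold higher, Lmo2 4.84-fold and Sox7 2.80-fold. Meox2, a homeobox factor of capillary endothelium, was 6.95-fold lower (3.34 to 17.4). Erg, Fli1 and Ets1, the ETS factors shared by endothelium, had ratios of 0.763, 0.514 and 0.790.

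Within the Notch pathway, the ligand genes Jag1 and Dll4 and the target Hey1 were higher. Of 10 tested members 4 were at least 2-fold higher against a background of 4.74%, and 2 were lower against a background of 13.9%. Jag1 had a ratio of 14.8 (10.5 to 21.1), Dll4 of 4.83 (3.69 to 6.32) and the receptor gene Notch4 of 2.47 (1.70 to 3.53). Jag2, with 21 UMIs against 13, was below the 50-UMI minimum. Hes1, the other canonical target, was 2.49-fold lower (1.75 to 3.65) in the listed cells, a call that ended under the marker rule, with a ratio of 0.672. Nrarp, a feedback inhibitor and target, had a ratio of 0.815 (0.589 to 1.11).

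Of 14 tested guidance genes 6 were at least 2-fold higher, against 4.74% of all tested genes, and 2 lower, close to the 13.9% of all tested genes. Nrp1, the semaphorin and VEGF co-receptor of arteries, had a ratio of 1.74 (1.52 to 1.99), while Nrp2 was 23.7-fold lower. Efna1 and Epha2 had ratios of 2.08 and 2.27, and Robo4, a stabiliser of vessels, was 2.63-fold lower (1.54 to 4.88).

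Among growth factor genes the ligands Vegfc, Pdgfd and Pdgfb were at least 2-fold higher, 3 of 12 tested members against 4.74% of all tested genes. The receptors Aplnr, Flt4 and Tek were lower, also 3 of 12, against 13.9%. Pdgfd and Pdgfb, which recruit mural cells, had ratios of 3.93 (2.24 to 6.74) and 2.10 (1.66 to 2.62). The Pdgfb call ended against the capillary clusters alone (1.93), in thinned cells (1.73) and under the marker rule (1.69), and that of Tek under the marker rule (0.607). Flt4, the VEGFC receptor, was 5.81-fold lower (2.78 to 14.6). The main VEGF receptor genes had ratios near 1: Kdr had a ratio of 1.07 (0.932 to 1.22) and Flt1 of 1.05 (0.891 to 1.23).

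In the TGF-beta and BMP list 3 of 10 tested members were at least 2-fold higher and none lower. Of all tested genes 4.74% were higher and 13.9% lower. Ltbp4, which anchors latent TGF-beta to elastic fibres, had a ratio of 16.5, the inhibitory Smad7 of 3.56 (2.35 to 5.32) and the receptor gene Tgfbr2 of 2.80 (2.35 to 3.33). Eng, the co-receptor endoglin, had a ratio of 0.600 (0.421 to 0.833).

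Elastic fibre genes formed the list with the highest median among those other than the markers, 3.75 over 7 tested members, against 0.888 over all tested genes. Of these 6 were at least 2-fold higher, against 4.74% of all tested genes, and 1 lower, against 13.9%, Emilin1 with 2 UMIs against 54. Fbln5, which assembles elastic fibres, had a ratio of 7.16 (5.91 to 8.68) and Fbn1, the microfibril protein fibrillin-1, of 3.75 (2.97 to 4.70). Below the minimum count, Eln had 19 UMIs against 9 and the crosslinking enzyme Lox 19 against 4. These genes were not particular to AECs. Capillary-2 ECs held more Fbn1 (982 CPM against 664) and Fbln2 (3323 CPM against 2640.4) than AECs. Fbln5 stood at 1246 CPM in AECs, 633 CPM in capillary-2 ECs and 94.7 to 257 CPM in the other clusters.

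Basement membrane genes summed to 22490.0 CPM in AECs and 22651 CPM in the other ECs. Of 13 tested members 3 were at least 2-fold higher, against 4.74% of all tested genes, and 2 lower, which is close to the 13.9% of all tested genes. Col18a1, for the heparan sulfate collagen that yields endostatin, had a ratio of 2.95 (2.64 to 3.29), Lamb2 of 4.39 and Agrn of 2.98. Col15a1 and Lamb1 were lower, with ratios of 0.418 (0.358 to 0.487) and 0.467 (0.320 to 0.661), and Col15a1 had a ratio of 0.649 under the marker rule. Col4a1, the major collagen IV chain, had a ratio of 0.601 (0.555 to 0.650).

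Lipid handling genes were low in AECs: 5 of 6 tested members were at least 2-fold lower, against 13.9% of all tested genes. Fabp4, a fatty acid binding protein of capillaries, was 4.05-fold lower (3.52 to 4.68). The fatty acid receptor gene Cd36 was 3.36-fold lower (2.78 to 4.10) and Gpihbp1, which holds lipoprotein lipase on the capillary wall, 3.62-fold. Fabp5 had a ratio of 1.27 (0.986 to 1.62). Of 16 tested vasoactive, haemostasis and caveolar genes 2 were higher and 4 lower, not far from the 4.74% and 13.9% of all tested genes. Ace, angiotensin-converting enzyme, had a ratio of 4.99 and Edn1, endothelin-1, of 3.19 (2.21 to 4.57), whereas the endothelin receptor gene Ednrb was 4.06-fold lower (2.29 to 7.93). Edn1 and Vwf were higher still in capillary-2 ECs, at 393 and 473 CPM against 258 and 121 CPM in AECs.

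**Figure D3:**
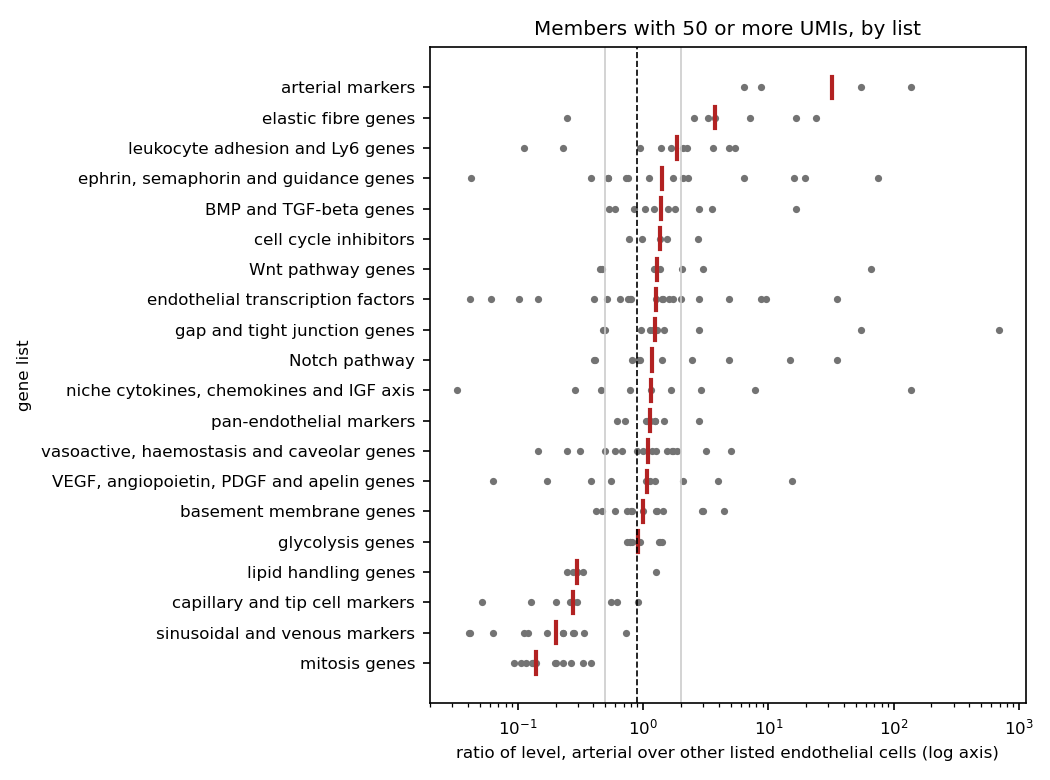
Each grey point is 1 gene with at least 50 UMIs over the listed ECs, placed by its ratio of levels, AECs over other listed ECs (log axis), in the row of its list, and the red bar is the list's median. The broken line is the median of all tested genes at 0.888, the grey lines are 2-fold, the elastic fibre genes lie farthest to the right after the markers, and the mitosis genes lie farthest to the left.

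AECs held few transcripts of dividing cells. All 13 tested mitosis genes were at least 2-fold lower, against 13.9% of all tested genes, and the list summed to 445 CPM (353 to 553) in AECs and 2486 CPM outside them. The sum differed widely between the other clusters. The sum was 8196 CPM in capillary-3, 1510.5 in capillary-1, 734 in capillary-2 and 723 in sinusoidal ECs, so AECs were lowest of the 5. Top2a was counted 10 times, in 5 AECs, and 502 times elsewhere. The cell cycle inhibitor gene Cdkn1c, for p57, stood 2.73-fold higher (2.20 to 3.37), the only 1 of 5 tested inhibitors past 2-fold. Under the marker rule its ratio was 1.32, which ended the call. Glycolysis genes gave 0 of 9 tested members past 2-fold in either direction, with a median of 0.912 close to that of all genes.

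Niche factors differed gene by gene, with 3 of 9 tested members at least 2-fold higher and 3 lower. The shares over all tested genes were 4.74% and 13.9%. Cxcl12, which is 1 of the 5 markers, was among the 15 highest genes. Cxcr4, its receptor, was chosen after its values were seen, and had 32 UMIs against 26, a ratio of 8.19 (4.73 to 14.3). Kitl, which encodes stem cell factor, had a ratio of 1.68 (1.36 to 2.06), but of 0.838 (0.658 to 1.06) between the corresponding cells of the Bmx-CreER Wls library described below. Igf1 had 1 UMI in AECs, while Igf2, also an insulin-like growth factor, was among the most abundant transcripts at 15315 CPM, 2.89-fold above the other ECs (2.76 to 3.02). H19, the noncoding RNA beside Igf2 in the same imprinted domain, was also chosen after its values were seen, and stood at 28984 CPM against 7480.1 CPM. Both had a UMI in all 56 AECs. Per 10000 UMIs, H19 ran from 22.3 to 846 in single AECs with a median of 238, and Igf2 from 21.3 to 726 with a median of 142. Sinusoidal ECs held 218 CPM of H19 and 311 CPM of Igf2. Outside the endothelium, H19 stood at 31675 CPM in chondrocytes.

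Among adhesion and Ly6 genes 5 of 10 tested members were at least 2-fold higher, against 4.74% of all tested genes. Another 2 were lower, not far from the 13.9% of all tested genes. Ly6a, the stem cell antigen Sca-1, had a ratio of 4.81 (3.82 to 6.05), Cd44 of 5.45 and Icam2 of 2.24 (1.51 in thinned cells), while Vcam1 and Selp had 2 and 0 UMIs in AECs. In the Wnt list 3 of 8 tested members were higher and 2 lower, against 4.74% and 13.9% of all tested genes. After Dkk2, the receptor genes Fzd6 and Lrp6 had 27 UMIs against 60 (95% interval of the ratio 1.83 to 4.79) and 24 against 78 (1.24 to 3.27), whereas Lrp5 and Tspan12, which act in norrin signalling, had ratios of 0.454 and 0.471. Wls itself had 9 UMIs in 8 AECs, 49.4 CPM (22.6 to 93.8), with a ratio of 1.22 (0.528 to 2.52).

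AECs also differed among themselves. Of 1128 genes with at least 30 UMIs in AECs, 118 had a variance between cells over 2 times the Poisson value at equal share, with a median over genes of 1.18. The highest values of this ratio to Poisson included H19 (46.3), Igf2 (23.2), Ly6a (12.8), Igfbp3 (11.3), Fbln5 (10.9), Col4a1 (10.6), Mgp (10.5) and Gja5 (9.75). Gja4 (1.72), Sox17 (1.53) and Efnb2 (1.22) stood lower, though above the median gene. At equal relative spread the ratio grows with a gene's count, so it does not rank genes of unlike abundance by unevenness.

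Fbln5, picked for this after its values were seen, divided the AECs. It was counted in 33 cells with a median of 2763 UMIs, and not in the other 23, with a median of 2900. Per 10000 UMIs on a log2 scale, and over 1127 genes, the transcripts that went with it between the 56 cells were Tmem100 (r = 0.693), Fbln2 (0.663), Col5a2 (0.642), Ace (0.638), Fbn1 (0.637), Jag1 (0.589), Cldn5 (0.572), Mgp (0.566) and Gja5 (0.524). The most opposed were Col4a2 (-0.65), Igfbp7 (-0.64), Col4a1 (-0.62) and Col15a1 (-0.61). The cells share 1 library, and r of Fbln5 with depth was -0.10. With 52 AECs thinned to 1000 UMIs, r was 0.631 for Fbln2, 0.359 for Jag1, 0.409 for Gja5 and -0.64 for Col4a1.

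Arterial genes differed in how far they followed this split. Cells with an Fbln5 UMI held Gja5 at 1769 CPM and cells without at 153 CPM, a ratio of 11.6 (6.33 to 23.6). The ratio was 12.8 (4.18 to 64.0) for Tmem100 and 2.38 (1.69 to 3.42) for Stmn2, and 19 of the 20 Bmx UMIs lay in cells with Fbln5. Jag1 stood at 853 against 236 CPM, and all 22 UMIs of Vwf lay in cells with Fbln5. In the opposite direction, Col4a1 stood at 1932 CPM in cells with Fbln5 and 6477 CPM in cells without, and Col15a1 at 263 and 2071 CPM. The level of Col4a1 in AECs without Fbln5 was thus close to the 6201 CPM of the other ECs. Plvap stood at 154 and 445 CPM and Cd36 at 363 and 987 CPM, all of them under the levels in the other ECs. Gja4 had a ratio of 1.35 (0.993 to 1.84), Dll4 of 1.12 (0.734 to 1.75) and Cxcl12 of 1.28 (0.985 to 1.66). Hey1 stood at 426 CPM in cells with Fbln5 and 459 CPM in cells without. H19 was level in these wild-type cells, at 29059 and 28869 CPM.

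**Figure D4:**
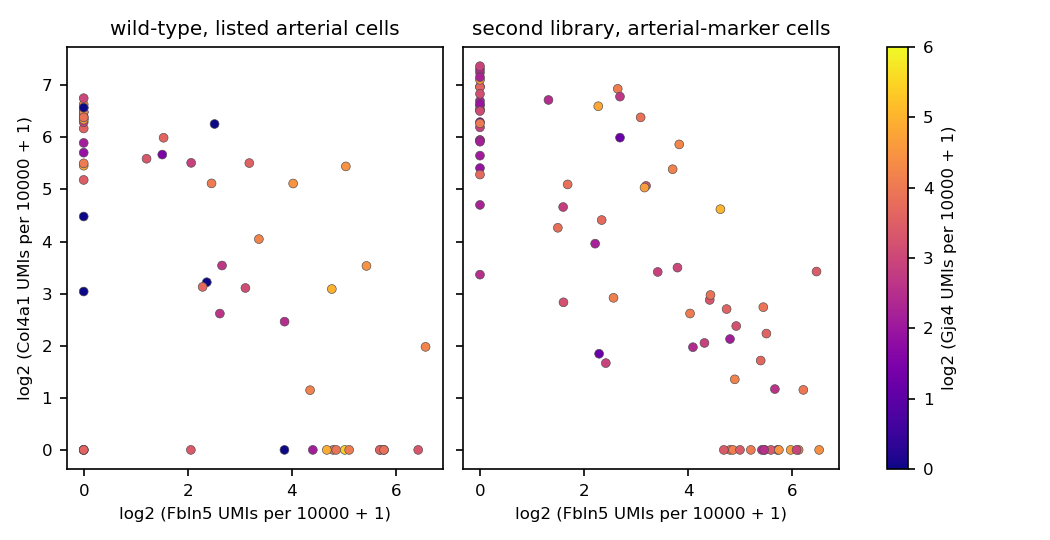
Each point is 1 cell, with Fbln5 on the x axis, Col4a1 on the y axis and Gja4 as colour, all as log2 of UMIs per 10000 plus 1, for the 56 listed AECs of the wild-type library (left) and the 77 arterial-marker cells of the other library (right). Of the 17 wild-type AECs without a Col4a1 UMI, 13 had Fbln5, and cells high in both genes were few in either library.

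The Bmx-CreER Wls library had no part in the authors' clustering, and so gave a measurement in cells that did not define the list. ECs were taken there by counts alone: EC-like cells had UMIs of at least 3 of the 10 pan-endothelial genes, and arterial-marker cells also had a Gja4 UMI and a UMI of another of the 5 markers. In the wild-type library this rule found 89 arterial-marker cells among 637 EC-like cells, 47 of the 56 listed AECs among them. The 89 also held 9 listed capillary-1 and 2 capillary-2 ECs, 1 HSPC, 1 BMSC and 29 cells in none of these lists. The other EC-like cells held 9 listed AECs and 32 HSPCs. Sets taken by this rule are thus not listed AECs alone. In the Bmx-CreER Wls library it found 77 among 492 (15.7%, 12.6% to 19.2%). The 15 genes of the rule were left out. Of the other 6166 genes with at least 50 UMIs, 4.52% were at least 2-fold higher in arterial-marker cells and 11.7% at least 2-fold lower. Of 225 genes that were 2-fold higher in the listed AECs and had counts in the second library, 131 (58.2%) were 2-fold higher there and 212 (94.2%) were above 1. Of 673 that were 2-fold lower, 263 (39.1%) were 2-fold lower there and 609 (90.5%) were below 1. Over all 4868 genes compared in both libraries, 36.8% were above 1 and 63.2% below 1 in the second library.

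All 13 of the 15 highest genes that were not markers were at least 2-fold higher again, and all of the 15 lowest at least 2-fold lower. With cells taken by any 2 of the 5 markers, 4 of these 15 were no longer 2-fold lower: Dcbld1 (0.762), C1qtnf9 (0.651), Nrp2 (0.552) and Fam167b (0.543). Gja5 had 395 UMIs in arterial-marker cells and 10 in other EC-like cells, a ratio of 200 (108 to 421). The ratios were 68.4 for Tmem100, 57.6 for Dkk2, 53.7 for Stmn2, 34.0 for Sema3g, 22.0 for Hey1 and 19.8 for Jag1. Odc1 had 6 UMIs against 477. Igf2 and H19 had ratios of 2.91 and 3.97. Hes1 had a ratio of 0.650, short of 2-fold, and of 1.05 where arterial-marker cells were taken by UMIs of any 2 of the 5 markers. The mitosis gene Top2a had a ratio of 0.432 (0.329 to 0.558), and of 0.699 with any 2 of the 5 markers.

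**Figure D5:**
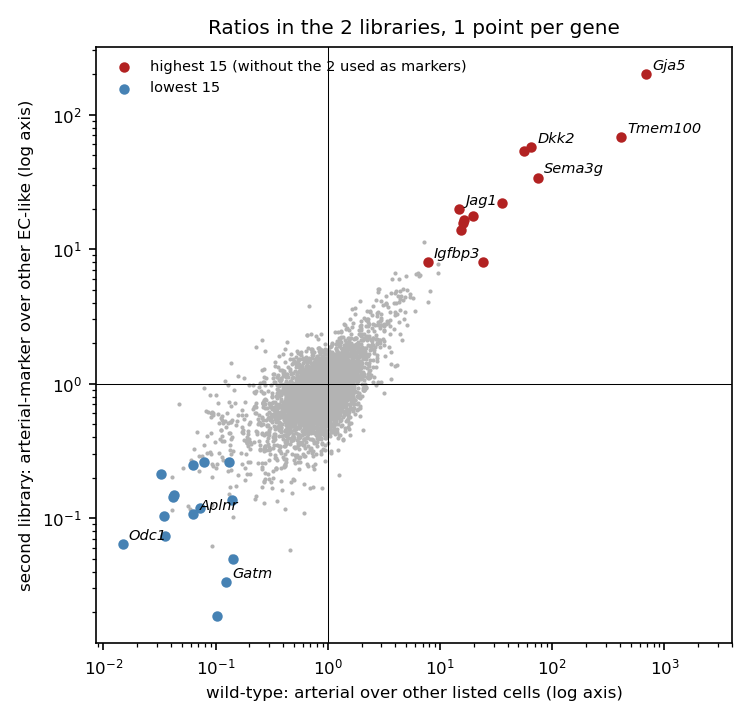
Each point is 1 gene with at least 50 UMIs in both comparisons, with the ratio of levels in the wild-type library (AECs over other listed ECs) on the x axis and that in the Bmx-CreER Wls library (arterial-marker over other EC-like cells) on the y axis, both logarithmic. The 13 red genes lie at the upper right and the 15 blue genes at the lower left, and genes at 0 in a group are drawn at the bound set by 3 counts.

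The Fbln5 split was measured there too. Fbln5 was counted in 52 of the 77 arterial-marker cells, whose median of 4446 UMIs was above the 2860.0 of the other 25. Of the 25 genes most correlated with Fbln5 in wild-type AECs all 25 had a positive r in these cells, against 57.1% of the 1127 genes, and of the 25 most opposed 21 had a negative r, against 42.9%. The r was 0.675 for Fbln2, 0.690 for Fbn1, 0.631 for Jag1 and 0.606 for Gja5, and -0.84 for Col4a1, -0.76 for Col4a2 and -0.71 for Col15a1. Gja5 stood at 1514 CPM in cells with Fbln5 and 253 CPM in cells without, and Col4a1 at 1651 and 8105 CPM.

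Between the libraries, arterial-marker cells were compared by the same rule. Wls had 20 UMIs in the 89 wild-type cells and 3 in the 77 Bmx-CreER Wls cells, a ratio of 0.158 (0.0300 to 0.532), against 0.569 (0.393 to 0.815) in the other EC-like cells. Counts of transcript ends may not register the recombined exons. Of 2562 genes with at least 50 UMIs over both sets of arterial-marker cells, 1.76% were at least 2-fold lower and 1.33% at least 2-fold higher in the Bmx-CreER Wls library. Of the 13 top genes outside the markers, Mgp with a ratio of 2.13 (1.80 to 2.53) and Ltbp4 with 2.03 (1.66 to 2.48) were past 2-fold, and the other 11 were not. Kitl had a ratio of 0.566 (0.429 to 0.741). Transcripts typical of mural, stromal and cartilage cells differed as well, with ratios of 0.0853 for Acta2, 0.185 for Col1a1 and 2.63 for Col2a1, and their part in the other ratios was not tested. With 1 library per genotype, genotype, tamoxifen, embryos and library cannot be told apart.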

How the data were processed

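BD Rhapsody libraries of lineage-depleted bone marrow cells were analysed, 1 per genotype. The files the authors deposited hold raw UMI counts, a row per gene and a column per barcode. According to the submitters' processing notes they used bcl2fastq 2.19.1.403, UMI-tools 1.0.1, STAR 2.7.1a against mm10, and featureCounts 1.6.4. Cell labels came from the study's cell list; UMI totals equalled the list for 434 of 435 cells, over genes in at least 3 cells. Cells outside the list were used with over 200 and under 5000 genes and a mitochondrial share under 30% (5736 and 6620 cells, medians 3128 and 3067 UMIs). Doublets were kept; Scrublet (scanpy 1.11.5) called 39 wild-type cells (0.680%), none an AEC.

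Counts were summed over cells and divided by the group's total. Intervals at 95% were exact Poisson, Clopper-Pearson or conditional binomial and reflect counting error alone. Zero counts were set to 3, and no ratio was given with 3 counts or fewer in both groups. Genes past 2-fold were counted among those with at least 50 UMIs. No test was made, because each genotype had 1 library. The ratio and its interval were tested on simulated data. Named genes were the 5 markers, and the 15 with the highest lower and the 15 with the lowest upper bound (without mitochondrial, haemoglobin, Xist and Y-linked genes). The 5 most like Gja4 and members of each gene list were named as well. The plan was 2 to 4 members per list, and several lists have more named. Other genes are said to be chosen after seeing their values. Among the lowest, 1 gene is not reported here. Members and lists were chosen with earlier results of these data known. Python 3.11.15, numpy 2.4.6, scipy 1.17.1 and pandas 2.3.3 were used. Promoter sequences were RefSeq's (GRCm38.p6).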

Additional observations from a re-analysis of the deposited data

How the results depend on the processing

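The count minimum set the number of genes past 2-fold: with at least 20 UMIs it was 515 higher and 1274 lower, with at least 200 UMIs 63 and 124, and with at least 1 UMI 1811 and 1440. Thinning each cell to 1000 UMIs left 1638 genes at the minimum, with 96 higher and 268 lower. Under the other 7 alternatives the counts stayed within 1.5 times, at 218 to 337 higher and 546 to 796 lower. The share of AECs was 11.5% in cells with at least 1000 UMIs and under 10% mitochondrial share, and 14.0% under the marker rule. In the second library the count of higher genes was 279, and 178 with UMIs of any 2 of the 5 markers. Of the single-gene ratios recomputed in the listed ECs, 545 stayed within the counting interval and 71 did not. In the second library 153 stayed and 60 did not. No called ratio crossed 1. The marker rule moved 28 of 71 single-gene ratios in the wild-type library by over 1.5 times and ended 7 calls: Cdkn1c (1.32), Pdgfb (1.69), Col15a1 (0.649), Gja1 (0.798), Hes1 (0.672), Scarb1 (0.518) and Tek (0.607). Thinning moved 27 of 77 and ended 4 calls: Icam2 (1.51), Pdgfb (1.73), Gja1 (0.531) and Gatm (0.628), the last at the bound set by 3 counts. In the second library, taking cells by any 2 of the 5 markers moved 35 of 71 and ended 13 calls, among them Dcbld1, C1qtnf9, Nrp2, Fam167b, Fabp4 (0.567), Cd36 (0.702), Gpihbp1 (0.766), Col15a1 (0.764), Cdkn1c (1.76) and Top2a (0.699). The ratio of Odc1 was 0.205 under the marker rule and 0.358 with any 2 markers in the second library. The cause was not tested. No paired analysis was possible because each genotype had 1 library. The limits are the 56 cells of 1 library: a gene under about 50 UMIs could be compared only with wide intervals, and spread between embryos was not measured.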

Other observations

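Genes of polyamine metabolism, chosen after the very low Odc1 count was seen, differed in both directions. Against 1 Odc1 UMI in AECs, Azin1, whose product frees ornithine decarboxylase from its antizyme, had 68 UMIs and a ratio of 4.53 (3.28 to 6.22) over the other listed ECs. Sat1, the acetyltransferase that starts polyamine breakdown, had 80 UMIs and a ratio of 4.07 (3.04 to 5.41), and the antizyme gene Oaz2 a ratio of 2.63 (1.72 to 3.96). Smox, spermine oxidase, had a ratio of 0.425 (0.190 to 0.830), and Srm, spermidine synthase, of 0.528 (0.166 to 1.30). In the Bmx-CreER Wls library the ratios of arterial-marker over other EC-like cells were 0.0637 for Odc1, 4.45 for Azin1, 3.99 for Sat1, 2.71 for Oaz2, 0.651 for Smox and 0.296 for Srm. All of these are counts of RNA in 1 library each, and polyamines were not measured.

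Glul, which encodes glutamine synthetase, was also chosen after its values were seen. It had 384 UMIs in AECs, 2108 CPM, and 270 CPM outside them, which gave a ratio of 7.82 (6.73 to 9.09), and 4.05 in the second library. Between AECs with and without an Fbln5 UMI its ratio was 0.934 (0.759 to 1.15). In the arterial-marker cells of the second library that ratio was 0.771 (0.611 to 0.979).

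The expression of H19 and Igf2 between single AECs had r = 0.50 over the 56 cells, and 0.642 over the 77 arterial-marker cells of the second library, on the log2 scale of UMIs per 10000. The 5 AECs with most H19 held 29.9% of its UMIs.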
